A study of Homo sapiens with 12 samples.

Results

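Semaphorins, their plexin receptors and the co-receptor neuropilin 1 were examined as 10 genes in cultured human pancreatic ductal adenocarcinoma (PDAC) cells with and without a knockout of ASAP2, which encodes an ADP-ribosylation factor (Arf) GTPase-activating protein. The genes were the secreted ligands SEMA3A, SEMA3B, SEMA3C and SEMA3F, the transmembrane ligands SEMA4B, SEMA4C and SEMA6B, the receptors PLXNA1 and PLXNB2, and NRP1, which makes 10 of the 22650 gene symbols in the files. They were selected on their FPKM values (mapped fragments scaled by transcript length and by the fragments of the library) in all 4 groups, and SEMA6B was listed for its opposite differences in the 2 lines. All comparisons of these 10 genes are therefore descriptions without a test, and the word call below only says that an adjusted p would fall under 0.05. The 4 groups were ASAP2 knockout Panc1, wild-type Panc1, ASAP2 knockout MiaPaCa2 and wild-type MiaPaCa2, each with 3 RNA-seq libraries of total RNA. Panc1 and MiaPaCa2 are established lines grown from human pancreatic carcinomas. The labels do not say how ASAP2 was disrupted, how many clones were used or whether libraries of 1 group stem from different cultures, so a p-value here reflects the spread among libraries, which may be technical.

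Semaphorins are guidance proteins, first studied in growing axons, that attract or repel moving cells. Class 3 semaphorins are secreted and mostly bind a neuropilin, which has no signalling domain of its own and passes the signal to a plexin of the A group. Class 4 and class 6 semaphorins sit in the membrane and bind plexins directly, those of class 4 mainly plexins of the B group and those of class 6 plexins of the A group. The inner part of a plexin is a GTPase-activating domain for small GTPases of the Ras family, and plexins also act on integrin adhesion and on the actin cytoskeleton. In tumours of the pancreas these ligands and receptors are known from studies of nerve invasion, blood vessels and cell migration.

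Promoter sequences are printed for a pair of genes that were lower together in Panc1 knockout libraries, SEMA3C and SEMA3F, and a pair that were higher together there, SEMA4C and PLXNA1, so that the sequence before their starts can be seen beside their levels. Each is the 250 bases before a transcription start in RefSeq, build GRCh38.p14, printed 5′ to 3′ on the gene's strand. Capitals mark the GC box, GGGCGG or its reverse complement, a sequence bound by Sp1-type factors. SEMA3C lies at chr7:80919052-80919301 on the minus strand, SEMA3F at chr3:50155074-50155323 on the plus strand, SEMA4C at chr2:96870081-96870330 on the minus strand and PLXNA1 at chr3:126982865-126983114 on the plus strand.
SEMA3C: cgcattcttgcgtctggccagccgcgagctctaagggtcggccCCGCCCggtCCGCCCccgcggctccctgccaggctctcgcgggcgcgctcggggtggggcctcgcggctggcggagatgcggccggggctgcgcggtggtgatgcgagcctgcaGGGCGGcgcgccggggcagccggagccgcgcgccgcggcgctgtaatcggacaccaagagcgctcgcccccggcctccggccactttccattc
SEMA3F: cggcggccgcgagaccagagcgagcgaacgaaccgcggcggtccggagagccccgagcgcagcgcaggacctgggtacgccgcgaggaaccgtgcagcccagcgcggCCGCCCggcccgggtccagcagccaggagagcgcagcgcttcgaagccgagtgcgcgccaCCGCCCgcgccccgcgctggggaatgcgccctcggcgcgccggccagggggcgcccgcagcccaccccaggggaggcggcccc
SEMA4C: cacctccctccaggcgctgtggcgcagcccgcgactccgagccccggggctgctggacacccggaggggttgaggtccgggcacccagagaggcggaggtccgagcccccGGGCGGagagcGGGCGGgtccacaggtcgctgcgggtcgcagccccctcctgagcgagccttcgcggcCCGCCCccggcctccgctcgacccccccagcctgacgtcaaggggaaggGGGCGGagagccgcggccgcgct
PLXNA1: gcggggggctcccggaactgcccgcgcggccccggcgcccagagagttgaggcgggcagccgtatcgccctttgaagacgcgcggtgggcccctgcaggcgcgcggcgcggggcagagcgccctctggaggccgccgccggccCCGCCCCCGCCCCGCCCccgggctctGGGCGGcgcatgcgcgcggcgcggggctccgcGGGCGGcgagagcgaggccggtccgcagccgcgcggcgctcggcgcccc
The genes and, where a gene had several starts, the start with the most CG pairs were chosen after values were seen. The printed stretch held 3 GC boxes in SEMA3C, 2 in SEMA3F, 4 in SEMA4C and 5 in PLXNA1, with overlapping matches counted one by one, so the box occurred before genes of both directions. The promoter table held 16 start windows of 300 bases (250 before and 50 after the start) for 7 of the 10 genes. SEMA3A, SEMA6B and NRP1 were not matched in it. Of the windows not printed, a SEMA3F window held 12 GC boxes, and a further SEMA3F window and a SEMA3C window held 0. The number of boxes therefore depends on the start shown. Some windows of the same gene overlap each other, so the 16 are not separate observations. A GC box on either strand was found in 11 of these 16 windows and in at least 1 window of each of the 7 genes, against 45% of the 35116 windows of that length in the table. An E-box (CANNTG, both strands) occurred in 9 of the 16 windows, against 68.7% of all, and no E-box overlapped a GC box. The TATA box TATAAA and the AP-1 site TGANTCA, searched on both strands, were found in 0 of the 16 windows, against 11.5% and 7.71% of all windows. The TEAD site GGAATG was found in 3 of the 16, all of them windows of SEMA3F or SEMA3B, against 14% of all. These are matches of letters, and no binding was measured.

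The 12 libraries listed between 17958 and 19105 genes, of which 11842 to 12500 reached 1 FPKM, and read depth is unknown since the files hold FPKM alone. Pearson's r of log2(FPKM + 1) was 0.9936 to 0.9971 within groups, 0.9679 to 0.9893 between genotypes of a line and 0.7863 to 0.8107 between the lines. The ASAP2 transcript averaged 13.8 ± 0.978 FPKM in knockout and 36.9 ± 2.04 FPKM in wild-type Panc1 libraries (SD, n = 3 each), a log2 difference of −1.36 with an adjusted p of 1.46e-08 in limma. In MiaPaCa2 it averaged 12.3 ± 1.29 FPKM in knockout and 13.5 ± 0.32 FPKM in wild-type libraries, a log2 difference of −0.13 with an adjusted p of 0.197 in limma, so the transcript level does not check the MiaPaCa2 knockout label. Of 6 epithelial markers, 5 reached 1 FPKM in Panc1 and 3 (KRT8, KRT18 and KRT19) in MiaPaCa2, where EPCAM was absent. Their summed level was 1114 to 1228 FPKM in knockout and 1216 to 1252 FPKM in wild-type Panc1 libraries, and 869 to 899 FPKM in knockout and 1224 to 1262 FPKM in wild-type MiaPaCa2 libraries. Within the Panc1 sum KRT19 averaged 254.3 FPKM in knockout and 540.6 FPKM in wild-type libraries, KRT8 averaged 514.3 FPKM in knockout and 372.4 FPKM in wild-type libraries, and KRT18 averaged 403.8 FPKM in knockout and 309.9 FPKM in wild-type libraries. In MiaPaCa2 KRT8, KRT18 and KRT19 were all lower in the knockout mean. These keratin levels thus moved with the genotype in both lines beside every difference below, and their part in them was not tested. None of 4 fibroblast, 4 endothelial and 4 leukocyte markers reached 1 FPKM in any group, and 1 of 4 neuron markers did. In bulk RNA a smaller share of expressing cells and less RNA per cell cannot be told apart.

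The secreted ligands SEMA3A, SEMA3C and SEMA3F were lower in Panc1 knockout than in Panc1 wild-type libraries and overlapped between the genotypes in MiaPaCa2. SEMA3C, a class 3 ligand known for its part in heart outflow and vessel growth, was measured at 38.6, 34.8 and 35.0 FPKM in the 3 Panc1 knockout libraries, against 57.9, 56.9 and 51.7 FPKM in the 3 Panc1 wild-type libraries. All knockout libraries lay below all wild-type libraries, with a log2(FPKM + 1) difference of −0.61 (SE 0.06 of the fit, as in every difference below). In MiaPaCa2 it was measured at 23.4, 24.3 and 22.3 FPKM in knockout and 23.1, 21.4 and 22.5 FPKM in wild-type libraries. These values interleave, and the difference was 0.06 (SE 0.06).

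SEMA3F, a ligand that prefers neuropilin 2 and repels endothelial and tumour cells, had 5.11, 5.26 and 5.997 FPKM in Panc1 knockout libraries, against 8.06, 8.01 and 8.50 FPKM in Panc1 wild-type libraries. Again the groups did not overlap, at a log2 difference of −0.51 (SE 0.09). In MiaPaCa2 it stayed near 1 FPKM, with 0.770, 0.942 and 0.809 FPKM in knockout and 1.15, 0.899 and 0.614 FPKM in wild-type libraries, an overlap with a difference of −0.03 (SE 0.09).

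SEMA3A, the best known repellent of axons and the ligand of neuropilin 1, differed above all between the lines. It had 0.115, 0.150 and 0.284 FPKM in Panc1 knockout libraries and 1.06, 0.667 and 0.645 FPKM in Panc1 wild-type libraries. All 6 values are low, and the groups did not overlap, at a log2 difference of −0.59 (SE 0.11). With a pseudocount of 0.1 in place of 1 this difference was −1.67, since most of the level lies under the pseudocount. In MiaPaCa2 it was measured at 36.6, 37.7 and 28.5 FPKM in knockout and 35.4, 31.2 and 34.8 FPKM in wild-type libraries, with the lowest value of both groups in a knockout library and a difference of 0.01 (SE 0.11).

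SEMA3B, a ligand encoded beside SEMA3F in a region of chromosome 3 that is often lost in lung tumours, was the secreted ligand with a lower level in MiaPaCa2 knockout libraries. It had 4.63, 4.29 and 4.19 FPKM in MiaPaCa2 knockout libraries, against 7.40, 4.87 and 5.43 FPKM in MiaPaCa2 wild-type libraries. The groups did not overlap, at −0.35 (SE 0.10), although 1 wild-type library stood above the rest, and without it (MiaPaCa2 wild-type replicate 1) the difference was −0.20. In Panc1 it had 0.518, 0.385 and 0.395 FPKM in knockout and 0.540, 0.604 and 0.548 FPKM in wild-type libraries. The values did not overlap but lay close together and under 1 FPKM, with a difference of −0.13 (SE 0.10), and SEMA3B was the 1 gene of the 10 without a call in Panc1.

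The transmembrane ligands SEMA4B, SEMA4C and SEMA6B had higher levels in knockout than in wild-type libraries of Panc1 and lower levels in knockout than in wild-type libraries of MiaPaCa2. SEMA6B, a class 6 ligand of plexins of the A group, had 13.97, 15.6 and 14.9 FPKM in Panc1 knockout libraries, against 4.50, 4.57 and 4.77 FPKM in Panc1 wild-type libraries, a log2 difference of 1.49 (SE 0.07). In MiaPaCa2 it had 31.0, 33.5 and 29.3 FPKM in knockout libraries, against 63.8, 53.5 and 51.8 FPKM in wild-type libraries, a log2 difference of −0.83 (SE 0.07). In both lines all 3 knockout libraries lay on one side of all 3 wild-type libraries, and the knockout libraries of the lines were nearer to each other than the wild-type libraries were. The difference in Panc1 exceeded that in MiaPaCa2 by 2.32 (SE 0.11) on the log2 scale.

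SEMA4C, a ligand of plexin B2, had 9.50, 8.21 and 8.16 FPKM in Panc1 knockout libraries and 5.58, 5.36 and 5.99 FPKM in Panc1 wild-type libraries, a log2 difference of 0.53 (SE 0.06). In MiaPaCa2 it had 10.1, 10.3 and 10.4 FPKM in knockout libraries and 12.3, 12.3 and 11.7 FPKM in wild-type libraries, a difference of −0.22 (SE 0.06). Neither pair of groups overlapped. SEMA4B, another class 4 membrane protein, was the most abundant of the 10 in Panc1, with 172, 164 and 161 FPKM in knockout and 141, 144 and 143 FPKM in wild-type libraries. The groups did not overlap and the difference was small, 0.21 (SE 0.05), and was 0.14 after scaling each library to the same FPKM sum and 0.35 after scaling by the median ratio. In MiaPaCa2 the gene had 8.26, 8.71 and 8.31 FPKM in knockout libraries, against 11.9, 12.6 and 11.1 FPKM in wild-type libraries, again without overlap, at −0.45 (SE 0.05).

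The plexins PLXNA1 and PLXNB2 were higher in Panc1 knockout libraries, and PLXNA1 also in MiaPaCa2 knockout libraries. PLXNA1, the main signalling partner of neuropilin 1 for class 3 ligands, had 30.1, 29.95 and 30.3 FPKM in Panc1 knockout libraries, against 18.6, 19.1 and 19.4 FPKM in Panc1 wild-type libraries, a log2 difference of 0.64 (SE 0.05). In MiaPaCa2 it had 33.1, 35.6 and 33.7 FPKM in knockout libraries, against 24.1, 27.2 and 26.2 FPKM in wild-type libraries, a difference of 0.39 (SE 0.05). Among the 10 only PLXNA1 was higher without overlap in the knockout libraries of both lines. Outside the 10, SEMA4D, SEMA4G and SEMA7A of the same families had this trait. So did MET, MRAS and DPYSL2, among others, and the share of all genes with it was not counted. PLXNB2, the receptor of SEMA4C, had 31.2, 31.7 and 32.6 FPKM in Panc1 knockout libraries and 24.8, 25.1 and 26.0 FPKM in Panc1 wild-type libraries, without overlap, at 0.32 (SE 0.06). In MiaPaCa2 its values overlapped, with 18.8, 15.7 and 18.3 FPKM in knockout and 16.3, 16.9 and 15.4 FPKM in wild-type libraries, at 0.11 (SE 0.06).

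NRP1, the co-receptor for SEMA3A and for vascular endothelial growth factor, differed in opposite directions in the lines and at very different levels. It had 27.0, 24.0 and 26.4 FPKM in Panc1 knockout libraries, against 39.9, 39.0 and 37.8 FPKM in Panc1 wild-type libraries, a log2 difference of −0.58 (SE 0.09). In MiaPaCa2 it had 2.02, 2.08 and 2.08 FPKM in knockout libraries, against 1.03, 0.603 and 0.560 FPKM in wild-type libraries, a difference of 0.83 (SE 0.09). The groups did not overlap in either line. The MiaPaCa2 levels are close to the pseudocount, and with one of 0.1 the difference there was 1.42.

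**Figure D1:**
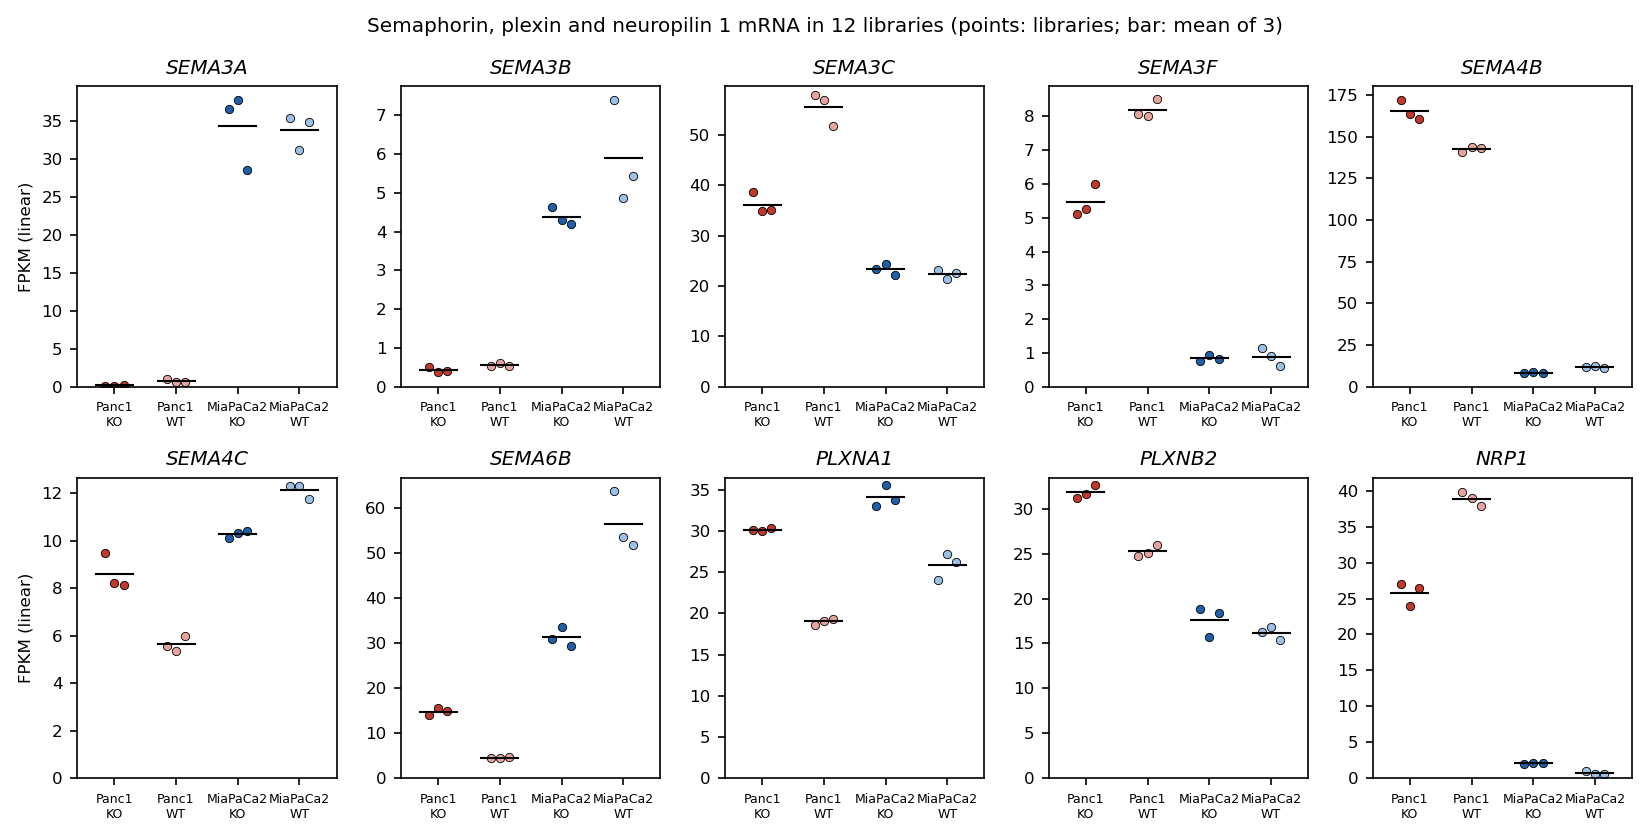
FPKM of the 10 genes in every library (vertical axes in FPKM, each with its own scale; groups on the horizontal axis are Panc1 knockout, Panc1 wild-type, MiaPaCa2 knockout and MiaPaCa2 wild-type); points are libraries and horizontal lines the mean of 3. SEMA6B is higher in Panc1 knockout and lower in MiaPaCa2 knockout than in the wild-type libraries beside it, and NRP1 shows the reverse.

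Across the 10 genes, 10 had knockout and wild-type values without overlap in Panc1, where 70.1% of the 13340 genes tested had none, and 6 in MiaPaCa2, where 43.5% had none. By the call rule 9 of the 10 differed in Panc1, 5 higher and 4 lower, against 63.5% of all genes, 21.8% higher and 41.6% lower. In MiaPaCa2 6 differed, 2 higher and 4 lower, against 34.1% of all genes, 17.8% higher and 16.3% lower. The difference between the lines was called in 8 of the 10, 4 higher and 4 lower in Panc1, against 57.4% of all genes, 20% higher and 37.4% lower. Since these values chose the genes, nothing is read from the counts. The median log2 difference of the 10 was 0.04 in Panc1 and −0.01 in MiaPaCa2, beside −0.10 and 0.01 over all genes tested. The Panc1 background depends on scaling, with 2910 genes higher and 5556 lower as deposited, 4271 and 3922 after scaling by the median ratio, 3940 and 4263 after quantile normalization, and 2315 and 6525 on a common FPKM sum. The median ratio also brought the median of all genes in Panc1 to 0.00. The sign of each Panc1 difference of the 10 was kept with a pseudocount of 0.1 and under the 3 scalings. The rest of the 21 alternatives could not have turned it. They leave the Panc1 estimate unchanged or drop a library from groups without overlap.

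**Figure D2:**
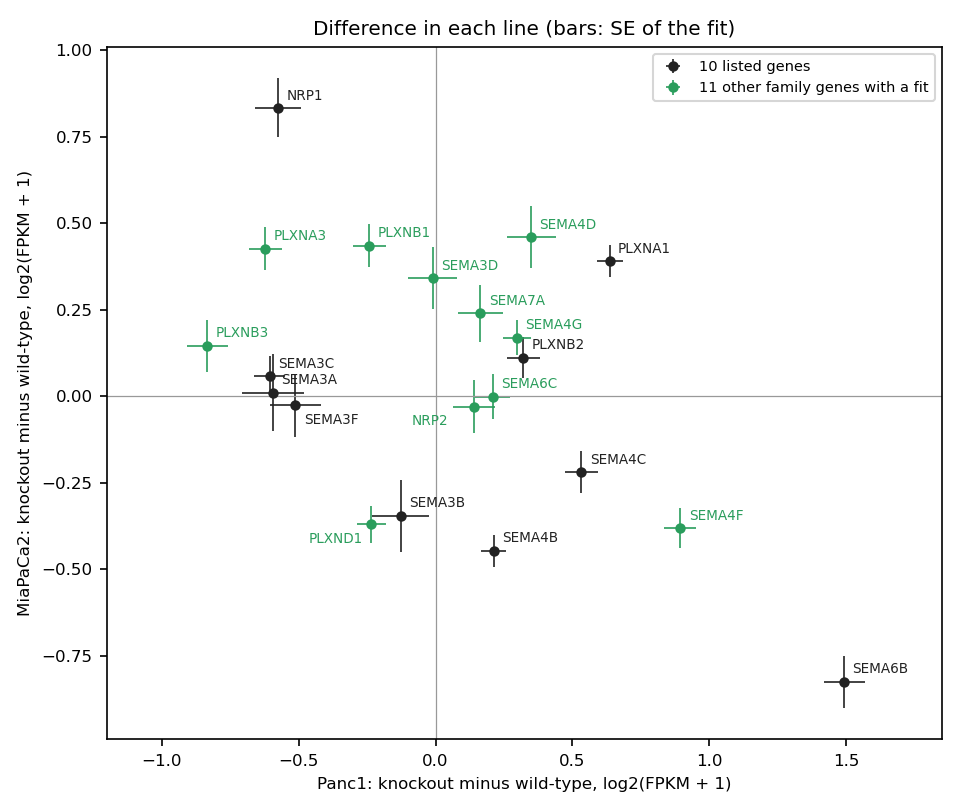
Difference in log2(FPKM + 1), knockout minus wild-type, in Panc1 (horizontal axis) against MiaPaCa2 (vertical axis) for the 10 listed genes (black) and the 11 other genes of the families with a fit (green); bars are the SE of the fit. SEMA6B lies at 1.49 and −0.83, NRP1 at −0.58 and 0.83, and PLXNA1 is higher in the knockout libraries of both lines at 0.64 and 0.39.

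The order of the levels set the lines apart. In Panc1 knockout libraries it ran from SEMA4B (165.5 FPKM) through SEMA3C (36.1 FPKM), PLXNB2 (31.8 FPKM), PLXNA1 (30.1 FPKM), NRP1 (25.8 FPKM), SEMA6B (14.8 FPKM), SEMA4C (8.62 FPKM) and SEMA3F (5.46 FPKM) to SEMA3B (0.433 FPKM) and SEMA3A (0.183 FPKM), with no overlap between neighbours. In Panc1 wild-type libraries NRP1 stood above both plexins and SEMA3F above SEMA4C and SEMA6B, again with no overlap between neighbours. In MiaPaCa2 knockout libraries SEMA3A, PLXNA1 and SEMA6B led, with overlap between SEMA3A and PLXNA1 and between PLXNA1 and SEMA6B, and SEMA6B lay above SEMA3C without overlap. In MiaPaCa2 wild-type libraries SEMA6B led alone at 56.4 FPKM. There SEMA4C and SEMA4B overlapped, and so did SEMA3F and NRP1 at the low end. FPKM is scaled by transcript length, which allows these comparisons between genes.

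Between the wild-type lines all 10 genes were apart without overlap, as were 84.9% of the genes tested, and all 10 were called, 5 higher and 5 lower in Panc1, as were 82.7% of all genes, 41.8% higher and 40.9% lower. Panc1 wild-type libraries were higher for NRP1 (log2 difference 4.54, SE 0.09), SEMA4B (3.48, SE 0.05), SEMA3F (2.29, SE 0.09), SEMA3C (1.27, SE 0.06) and PLXNB2 (0.61, SE 0.06). They were lower for SEMA3A (−4.29, SE 0.11), SEMA6B (−3.35, SE 0.07), SEMA3B (−2.12, SE 0.10), SEMA4C (−0.98, SE 0.06) and PLXNA1 (−0.42, SE 0.05). A wild-type Panc1 library thus held much co-receptor mRNA and little mRNA of the ligand SEMA3A, with 38.9 ± 1.01 FPKM of NRP1 and 0.791 ± 0.235 FPKM of SEMA3A (SD, n = 3). A wild-type MiaPaCa2 library held 0.731 ± 0.259 FPKM of NRP1 and 33.8 ± 2.27 FPKM of SEMA3A. SEMA3C, another class 3 ligand, averaged 55.5 FPKM in wild-type Panc1 and 22.4 FPKM in wild-type MiaPaCa2 libraries.

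The levels were also summed over whole classes. The 7 class 3 semaphorins summed to 42.7 ± 1.93 FPKM in knockout and 65.9 ± 3.28 FPKM in wild-type Panc1 libraries, and to 64.8 ± 6.33 FPKM in knockout and 64.5 ± 4.5 FPKM in wild-type MiaPaCa2 libraries (SD, n = 3 each). SEMA3C made up most of this sum in Panc1, SEMA3A and SEMA3C most of it in MiaPaCa2. The 20 semaphorins together came to 248.9 ± 8.41 FPKM in knockout and 231.4 ± 2.21 FPKM in wild-type Panc1 libraries, and to 123.3 ± 7.69 FPKM in knockout and 152.4 ± 10.3 FPKM in wild-type MiaPaCa2 libraries. SEMA4B alone held 66.5% of the semaphorin FPKM in Panc1 knockout and 61.7% in Panc1 wild-type libraries. In MiaPaCa2 the largest shares were those of SEMA6B, 25.4% in knockout and 36.9% in wild-type libraries, and of SEMA3A, 27.7% in knockout and 22.2% in wild-type libraries.

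The 9 plexins summed to 104.2 ± 2.43 FPKM in knockout and 101.9 ± 1.17 FPKM in wild-type Panc1 libraries, a gap no larger than the spread between libraries, with PLXNA1 and PLXNB2 making up 61.9 ± 0.89 FPKM in knockout and 44.3 ± 0.997 FPKM in wild-type libraries. In MiaPaCa2 the 9 plexins summed to 84.4 ± 0.181 FPKM in knockout and 77.8 ± 2.08 FPKM in wild-type libraries. Both neuropilins together came to 43.0 ± 3.15 FPKM in knockout and 54.3 ± 0.229 FPKM in wild-type Panc1 libraries, and in MiaPaCa2 to 2.07 ± 0.0454 FPKM in knockout and 0.759 ± 0.308 FPKM in wild-type libraries.

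**Figure D3:**
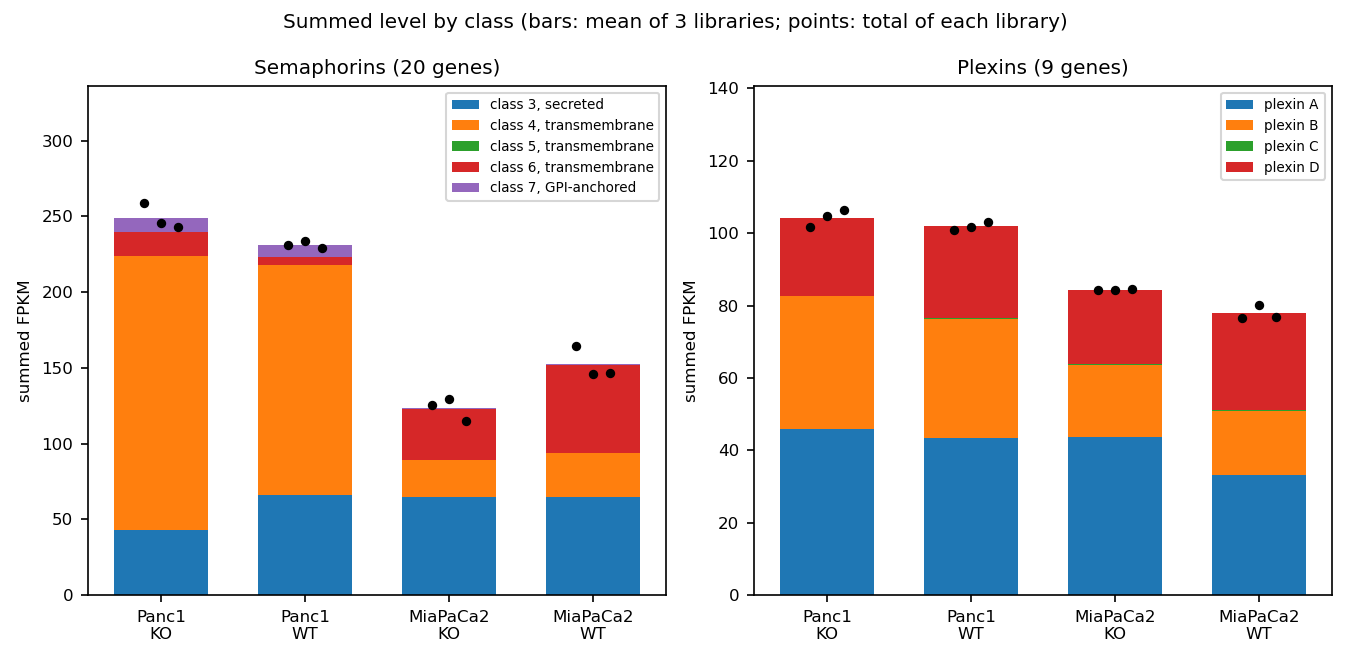
Summed FPKM (vertical axes) of the 20 semaphorins (left) and the 9 plexins (right) in the 4 groups; stacked bars are the mean of 3 libraries for each class, and points are the total of each library. The class 3 sum is 42.7 FPKM in Panc1 knockout and 65.9 FPKM in Panc1 wild-type libraries, while it is 64.8 FPKM in MiaPaCa2 knockout and 64.5 FPKM in MiaPaCa2 wild-type libraries.

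The rest of the families, 21 genes, was tested in the fit over all genes, and 11 of the 21 passed the filter of 1 FPKM. In Panc1 4 of these 11 rose, 4 fell and 3 did not pass, with a median log2 difference of 0.14 beside −0.10 over all genes, in limma with Benjamini-Hochberg adjustment. In MiaPaCa2 6 rose, 2 fell and 3 did not pass, with a median of 0.17 beside 0.01. The shares of all genes called, given above, are 63.5% in Panc1 and 34.1% in MiaPaCa2.

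Of the 7 plexins in this rest 4 passed the filter. These 4 fell in Panc1 knockout libraries, where 41.6% of all genes were called lower and PLXNA1 and PLXNB2 were higher. PLXNB3, a receptor of SEMA5A, fell to 1.40 ± 0.0497 FPKM in knockout libraries, against 3.28 ± 0.0889 FPKM in wild-type libraries (log2 difference −0.83, adjusted p 1.46e-06 in limma). PLXNA3, a receptor for class 3 ligands with neuropilin 2, fell to 15.3 ± 0.409 FPKM, against 24.1 ± 0.363 FPKM in wild-type libraries (−0.62, adjusted p 3.15e-06 in limma). The falls of PLXNB1, the receptor of SEMA4D (−0.24, adjusted p 0.00447 in limma), and of PLXND1, the receptor of SEMA3E (−0.23, adjusted p 0.00201 in limma), were smaller and depended on scaling. After scaling by the median ratio PLXNB1 was at −0.13 (adjusted p 0.0837 in limma) and PLXND1 at −0.10 (adjusted p 0.152 in limma), and after quantile normalization PLXNB1 was at −0.09 (adjusted p 0.231 in limma).

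In MiaPaCa2 knockout libraries PLXNA3 rose to 9.59 ± 0.400 FPKM, against 6.90 ± 0.745 FPKM in wild-type libraries (0.43, adjusted p 0.000276 in limma), and PLXNB1 rose to 1.27 ± 0.158 FPKM, against 0.677 ± 0.056 FPKM (0.43, adjusted p 0.000245 in limma). PLXND1 fell there too, to 20.5 ± 0.543 FPKM in knockout libraries, against 26.8 ± 1.14 FPKM in wild-type libraries (−0.37, adjusted p 0.000261 in limma). PLXNB3 had 1.01 ± 0.214 FPKM in knockout and 0.815 ± 0.118 FPKM in wild-type MiaPaCa2 libraries and did not pass (0.15, adjusted p 0.159 in limma). The difference between the lines passed for PLXNA3 (−1.05, adjusted p 1.5e-06 in limma), PLXNB3 (−0.98, adjusted p 1.21e-05 in limma) and PLXNB1 (−0.68, adjusted p 4.85e-05 in limma), and was 0.14 for PLXND1 (adjusted p 0.141 in limma).

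Of the other semaphorins, SEMA4F, a class 4 membrane protein, had the pattern of the 3 transmembrane ligands above. It rose to 3.80 ± 0.203 FPKM in Panc1 knockout libraries, against 1.58 ± 0.0389 FPKM in wild-type libraries (0.89, adjusted p 9.43e-08 in limma), and fell to 1.25 ± 0.105 FPKM in MiaPaCa2 knockout libraries, against 1.94 ± 0.118 FPKM in wild-type libraries (−0.38, adjusted p 0.000379 in limma). The lines differed by 1.28 (adjusted p 1.94e-07 in limma). SEMA4D, the ligand of plexin B1, rose in both lines, by 0.35 in Panc1 (adjusted p 0.00446 in limma) and by 0.46 in MiaPaCa2 (adjusted p 0.00203 in limma), where it had 3.12 ± 0.522 FPKM in knockout and 1.99 ± 0.240 FPKM in wild-type libraries. Its Panc1 level was under 1 FPKM, and the Panc1 call did not hold after quantile normalization (0.20, adjusted p 0.0663 in limma).

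The remaining class 3, 4, 6 and 7 genes moved by less. SEMA4G, a further class 4 gene, rose by 0.30 in Panc1 (adjusted p 0.000266 in limma). SEMA6C, a class 6 gene, rose by 0.21 in Panc1 (adjusted p 0.0139 in limma), but was at 0.16 without Panc1 knockout replicate 1 (adjusted p 0.0569 in limma). SEMA7A, a ligand held by a lipid anchor that also binds an integrin, had 9.38 ± 0.699 FPKM in knockout and 8.25 ± 0.299 FPKM in wild-type Panc1 libraries and did not pass as deposited (0.16, adjusted p 0.101 in limma). It passed after scaling by the median ratio (0.29, adjusted p 0.00693 in limma) and after quantile normalization (0.31, adjusted p 0.00161 in limma). NRP2, the co-receptor of SEMA3F, had 17.2 ± 2.09 FPKM in knockout and 15.4 ± 0.842 FPKM in wild-type Panc1 libraries and likewise passed after scaling by the median ratio (0.27, adjusted p 0.0103 in limma) and after quantile normalization (0.26, adjusted p 0.0325 in limma), not as deposited (0.14, adjusted p 0.129 in limma). In MiaPaCa2 it was close to 0 in both groups.

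In MiaPaCa2 3 further rises were near the threshold and did not hold when some libraries were left out. SEMA3D, a class 3 ligand, rose to 1.47 ± 0.322 FPKM in knockout libraries, against 0.941 ± 0.176 FPKM in wild-type libraries (0.34, adjusted p 0.0115 in limma), with overlapping values. Its adjusted p in limma was 0.0529 without MiaPaCa2 knockout replicate 1 and 0.0559 without MiaPaCa2 wild-type replicate 2. In Panc1 SEMA3D was near 0 FPKM in both groups. SEMA4G rose by 0.17 (adjusted p 0.0223 in limma), and its adjusted p was 0.0524 without MiaPaCa2 knockout replicate 2, 0.0726 without MiaPaCa2 knockout replicate 3, 0.056 without MiaPaCa2 wild-type replicate 1 and 0.0833 without MiaPaCa2 wild-type replicate 3, all in limma. SEMA7A rose by 0.24 at 0.807 ± 0.211 FPKM in knockout and 0.524 ± 0.0525 FPKM in wild-type libraries (adjusted p 0.0398 in limma). That call was lost in limma without Panc1 knockout replicate 2 (adjusted p 0.0522), Panc1 wild-type replicate 1 (0.0516) or 2 (0.0536), MiaPaCa2 knockout replicate 1 (0.139) or 3 (0.131), or MiaPaCa2 wild-type replicate 1 (0.0673), 2 (0.0677) or 3 (0.124).

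The 10 family genes under the filter stayed under 1 FPKM in each group mean. SEMA3E, the ligand of plexin D1, had 0.290 ± 0.0392 FPKM in knockout and 0.732 ± 0.0425 FPKM in wild-type Panc1 libraries. PLXNA4 had 0.516 ± 0.0992 FPKM in knockout and 0.0557 ± 0.00513 FPKM in wild-type Panc1 libraries, and 0.048 ± 0.0171 FPKM in knockout and 0.333 ± 0.0816 FPKM in wild-type MiaPaCa2 libraries. SEMA3E and PLXNA4 were picked out after their values were seen, and neither was tested.

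The partners of the pathway were examined as 22 genes for co-receptors, growth factors that share neuropilins, and proteases that process or shed semaphorins and their receptors. Of these, 16 passed the filter. In Panc1 7 rose, 3 fell and 6 did not pass, with a median of 0.05, where 63.5% of all genes were called and their median was −0.10. In MiaPaCa2 5 rose, 3 fell and 8 did not pass, with a median of 0.09, where 34.1% of all genes were called and their median was 0.01. PCSK6, a proprotein convertase, rose to 12.9 ± 1.06 FPKM in Panc1 knockout libraries, against 4.70 ± 0.193 FPKM in wild-type libraries (1.29, adjusted p 7.71e-09 in limma). In MiaPaCa2 it had 3.76 FPKM in both groups. L1CAM, an adhesion molecule that acts with neuropilin 1 in the SEMA3A receptor, rose to 42.3 ± 1.59 FPKM in Panc1 knockout libraries, against 21.6 ± 0.524 FPKM in wild-type libraries (0.94, adjusted p 2.44e-07 in limma). PTK7, a membrane pseudokinase of cell polarity, rose by 0.53 in Panc1 (adjusted p 0.00122 in limma). ADAM10, a protease that sheds membrane proteins, fell there by 0.58 (adjusted p 9.14e-05 in limma). In MiaPaCa2 PTK7 (0.49, adjusted p 0.00539 in limma) and L1CAM (0.22, adjusted p 0.0237 in limma) rose as well, with overlapping values. Neither rise passed in MiaPaCa2 fitted alone (adjusted p 0.0678 for PTK7 and 0.106 for L1CAM in limma).

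Among the partners in MiaPaCa2, VEGFA, the growth factor that also binds neuropilin 1, rose to 20.7 ± 2.65 FPKM in knockout libraries, against 10.4 ± 1.12 FPKM in wild-type libraries (0.93, adjusted p 5.2e-05 in limma). In Panc1 it had 21.5 ± 3.15 FPKM in knockout and 24.0 ± 0.937 FPKM in wild-type libraries (−0.16, adjusted p 0.217 in limma), and the lines differed by −1.09 (adjusted p 8.65e-05 in limma). MMP14, a membrane protease that cleaves SEMA4D, rose to 9.88 ± 2.17 FPKM in MiaPaCa2 knockout libraries, against 5.83 ± 0.168 FPKM in wild-type libraries (0.65, adjusted p 0.000467 in limma). MET, the receptor kinase that pairs with plexin B1, rose by 0.34 (adjusted p 0.0012 in limma). VEGFC, a growth factor that binds neuropilin 2, fell by 0.30 (adjusted p 0.00365 in limma). In Panc1 MET rose as well (0.21, adjusted p 0.00831 in limma), but did not pass on a common FPKM sum (0.14, adjusted p 0.0934 in limma).

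Proteins that act inside the cell after plexins were examined as 36 genes, of which 29 passed the filter. In Panc1 8 rose, 10 fell and 11 did not pass, with a median of 0.04, beside 63.5% of all genes called and a median of −0.10, and 15 rose after scaling by the median ratio. In MiaPaCa2 5 rose, 2 fell and 22 did not pass, with a median of 0.05, beside 34.1% of all genes called and a median of 0.01. RND3, which encodes a small GTP-binding protein, fell to 9.50 ± 1.17 FPKM in Panc1 knockout libraries, against 27.4 ± 1.19 FPKM in wild-type libraries (−1.44, adjusted p 1.12e-08 in limma), and was near 0 in both MiaPaCa2 groups. RRAS and MRAS encode Ras family proteins that plexins switch off. RRAS rose to 85.5 ± 1.53 FPKM in Panc1 knockout libraries, against 47.3 ± 1.3 FPKM in wild-type libraries (0.84, adjusted p 1.63e-05 in limma), and MRAS rose to 7.91 ± 0.426 FPKM, against 3.20 ± 0.0678 FPKM in wild-type libraries (1.08, adjusted p 2.3e-08 in limma). FARP1, a guanine nucleotide exchange factor, rose in Panc1 knockout libraries (0.76, adjusted p 9.32e-08 in limma). It averaged 16.2 ± 0.493 FPKM there, against 9.15 ± 0.231 FPKM in wild-type libraries. In MiaPaCa2 MRAS rose as well (0.21, adjusted p 0.0154 in limma), but did not pass without MiaPaCa2 wild-type replicate 3 (adjusted p 0.0692 in limma).

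In MiaPaCa2 the calls among these signalling genes were of smaller size. FARP2, an exchange factor for Rac that plexin A1 releases on SEMA3A binding, fell to 8.71 ± 0.406 FPKM in knockout libraries, against 11.6 ± 0.197 FPKM in wild-type libraries (−0.38, adjusted p 0.000615 in limma). DPYSL2, a collapsin response mediator of SEMA3A signalling, rose by 0.23 (adjusted p 0.00628 in limma), and its relative DPYSL5 by 0.34 (adjusted p 0.0144 in limma). MICAL1, an enzyme that oxidises actin after plexin activation, rose by 0.23 (adjusted p 0.017 in limma). DPYSL2 rose in Panc1 too (0.23, adjusted p 0.00214 in limma). In limma DPYSL5 lost its call without MiaPaCa2 knockout replicate 3 (adjusted p 0.0521) or MiaPaCa2 wild-type replicate 3 (0.0527), and MICAL1 without MiaPaCa2 knockout replicate 1 (0.069) or MiaPaCa2 wild-type replicate 1 (0.0644) or 3 (0.0587). The count of 5 rises was 1 without MiaPaCa2 wild-type replicate 3, 2 without MiaPaCa2 knockout replicate 3 and 3 without MiaPaCa2 knockout replicate 1.

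Genes outside the lists with the differences most like those of SEMA6B and NRP1 were looked up among the 7551 genes whose higher group reached 5 FPKM in both lines, by the summed distance of the 2 log2 differences. Nearest to SEMA6B was FAM20C, a kinase of secreted proteins, at a distance of 0.41, with 6.53 FPKM in knockout and 1.49 FPKM in wild-type Panc1 libraries and 6.80 FPKM in knockout and 10.2 FPKM in wild-type MiaPaCa2 libraries. HLA-B, whose reads may be shared with near-identical genes and which is uncertain for that reason, followed at 0.46, and UBE2L6, a conjugating enzyme for the ubiquitin-like ISG15, at 0.48. Nearest to NRP1 were GINS4, a subunit of the replication helicase, at 0.15, PON2, a lactonase, at 0.20, and KCNK6, a potassium channel, at 0.22. NRP1 itself averaged 2.06 FPKM in MiaPaCa2 knockout libraries, under the limit of 5 FPKM. The pseudocount shrinks its difference there, from 1.42 with 0.1 to 0.83 with 1, so this likeness holds on the scale used only. PON2 had 29.6 FPKM in knockout and 48.2 FPKM in wild-type Panc1 libraries, and 58.3 FPKM in knockout and 34.3 FPKM in wild-type MiaPaCa2 libraries. The 4 group means on which this likeness rests are those of the fit over all 12 libraries.

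In GRCh37 (hg19), the build of the files, the 10 genes lie on 7 chromosomes, with positions from GENCODE. SEMA3A (chromosome 7, 83585093 to 84122040, minus strand) and SEMA3C (chromosome 7, 80371854 to 80551675, minus strand) lie on the same chromosome, and SEMA3F (chromosome 3, 50192478 to 50226508, plus strand) and SEMA3B (chromosome 3, 50304990 to 50314977, plus strand) are near each other. SEMA6B lies on chromosome 19 (4542605 to 4581788, minus strand), SEMA4B on chromosome 15 (90703836 to 90772911, plus strand), SEMA4C on chromosome 2 (97525455 to 97536494, minus strand), PLXNA1 on chromosome 3 (126701536 to 126756232, plus strand), PLXNB2 on chromosome 22 (50713408 to 50746075, minus strand) and NRP1 on chromosome 10 (33466420 to 33625190, minus strand). Each difference was set beside those of the tested genes within 2 Mb and of its whole chromosome.

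SEMA6B stood outside its surroundings in both lines, above all 74 of its neighbours in Panc1 (their median 0.14) and below all 74 in MiaPaCa2 (their median −0.03). PLXNA1 was above all 22 of its neighbours in Panc1 and 21 of 22 in MiaPaCa2, with medians of −0.01 and 0.04. NRP1 was below all 9 of its neighbours in Panc1 and above all 9 in MiaPaCa2, with medians of −0.10 and −0.05. For SEMA3C the neighbours were lower as well, with a median of −0.48 over 3 genes beside its own −0.61, and chromosome 7 had a median of −0.33 in Panc1. SEMA3A had 1 tested neighbour. SEMA4C was at −0.22 in MiaPaCa2, where its 32 neighbours had a median of −0.09 and chromosome 2 one of −0.15. For SEMA4F the MiaPaCa2 fall of 0.38 was the median of its 42 neighbours, −0.38. DNA was not measured, and its part in these differences was not tested.

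**Figure D4:**
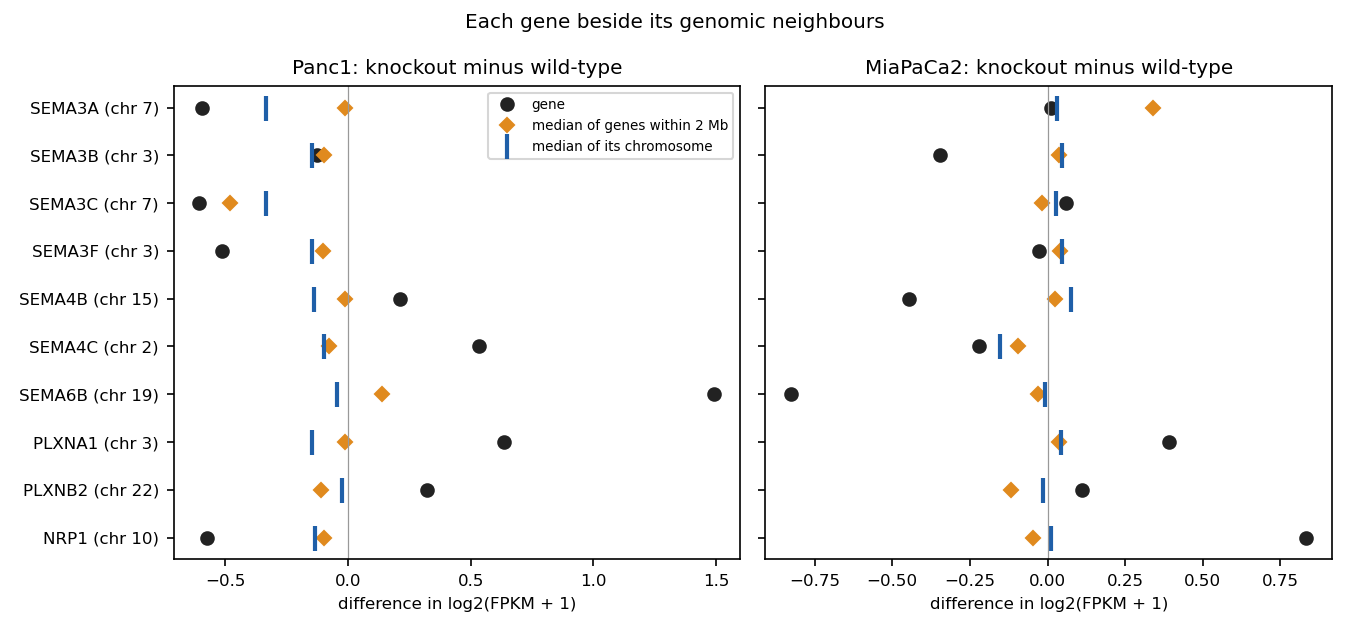
Difference in log2(FPKM + 1), knockout minus wild-type (horizontal axes), of each of the 10 genes (black points), the median of the tested genes within 2 Mb (orange diamonds) and the median of its chromosome (blue bars) in Panc1 (left) and MiaPaCa2 (right). SEMA6B, listed for its opposite differences, is at 1.49 and −0.83, with neighbour medians of 0.14 and −0.03. SEMA3C at −0.61 in Panc1 has a neighbour median of −0.48.

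Several genes overlap another gene in the files. Whether strand was used to assign reads is not stated, and without it the reads of genes on opposite strands cannot be told apart. SEMA3B overlaps SEMA3B-AS1, which averaged 0.121 FPKM in knockout and 0.34 FPKM in wild-type Panc1 libraries and 0.405 FPKM in knockout and 0.465 FPKM in wild-type MiaPaCa2 libraries. SEMA3F overlaps SEMA3F-AS1, which averaged 1.94 FPKM in knockout and 2.52 FPKM in wild-type Panc1 libraries and 2.55 FPKM in knockout and 2.48 FPKM in wild-type MiaPaCa2 libraries. In MiaPaCa2 this antisense gene was thus listed at a higher FPKM than SEMA3F itself. SEMA4G overlaps MRPL43 and PLXNA3 overlaps LAGE3 on the other strand, and PLXNB3 overlaps SRPK3 on its own strand, so these values are uncertain to the extent that reads were shared.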

How the data were processed

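RNA was measured in 12 libraries (4 groups of 3). ISOGEN II served to extract total RNA and a BGISEQ-500 to sequence it, per the labels' protocols. Alignment to hg19 with TopHat2 2.0.14 and FPKM from STAR 2.5.2a are given in the design text and the submitters' processing notes. Each deposited file pairs a gene symbol with its FPKM, as computed by the authors. Depth, strandedness and the handling of multiply mapped reads are not stated. Whole reads could not be recovered (mean distance to whole numbers 0.20 to 0.22, against 0.25 without steps), so no count test was run. A symbol absent from a library was taken as 0.

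Limma 3.58.1 in R 4.3.3 was fitted to log2(FPKM + 1), using all 12 libraries and 4 group means, empirical Bayes moderation with a trend and 8 residual degrees of freedom. Tests were two-sided, and p-values were adjusted by Benjamini-Hochberg across the 13340 genes averaging 1 FPKM or more in at least 1 line. The threshold for a call was 0.05. Fold changes on this scale understate those of low genes. The limma fit was tested on simulated data for the Panc1 comparison only, with known changes put into the Panc1 knockout libraries.

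The 10 genes, the lists and the naming rule were chosen with earlier results of these data known. The rule names every tested gene of the families, and of the other lists the 4 called genes with the largest change per line, no overlap between the groups and at least 1 FPKM in the higher group. Positions came from GENCODE on GRCh37, promoters from RefSeq. The alternatives were another pseudocount (0.1), no filter or one of 5 FPKM, 3 scalings, no trend, each line alone, a replicate block and each library left out.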

Additional observations from a re-analysis of the deposited data

Results flagged for a closer look

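The knockout difference in Panc1 minus that in MiaPaCa2, on the log2(FPKM + 1) scale, was looked at again where the lines went apart. For SEMA6B, SEMA4C and SEMA4B all knockout libraries lay above all wild-type libraries in Panc1 and below them all in MiaPaCa2. NRP1 had the reverse. Groups without overlap were common, at 70.1% of all genes tested in Panc1 and 43.5% in MiaPaCa2. The share of all genes with opposite sides in the lines was not counted, so nothing is read from this pattern. The differences between the lines were 2.32 for SEMA6B, 0.75 for SEMA4C, 0.66 for SEMA4B and −1.41 for NRP1. No p-value is read from the fit for them, since the values had chosen the genes.

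The limma test of the interaction, at an adjusted p below 0.05, called 57.4% of all genes tested. Of the genes outside the 10 it called 1 higher and 4 lower in Panc1 among the other 11 family genes tested, 6 higher and 4 lower among 16 partners, and 7 higher and 10 lower among 29 signalling genes. Among the families the difference was 1.28 for SEMA4F, −1.05 for PLXNA3, −0.98 for PLXNB3, −0.68 for PLXNB1 and −0.35 for SEMA3D, the last with an adjusted p of 0.0316 in limma. SEMA3D was near 0 FPKM in Panc1, so its value is that of MiaPaCa2, where its groups overlapped. Among the partners already named for a change within a line it was 1.29 for PCSK6, 0.72 for L1CAM, 0.33 for VEGFC, −0.67 for ADAM10, −0.87 for MMP14 and −1.09 for VEGFA. Among the signalling genes named in that way it was 0.87 for MRAS, 0.78 for FARP1, 0.68 for RRAS, 0.42 for FARP2 and −1.43 for RND3. RND3 was near 0 FPKM in MiaPaCa2, so its value is that of Panc1.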

How the results depend on the processing

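The counts of genes past the threshold stayed within 1.5 times under every alternative: 8466 in Panc1 (7642 to 8816 with a library left out), 4545 in MiaPaCa2 (3413 to 4592), 7661 for the difference between the lines (6944 to 7679) and 11034 between the wild-type lines (10661 to 11198). Among genes called for the difference between the lines, 34.8% were positive as deposited, 51.8% with the median ratio, 47.8% with quantile normalization and 27.5% on a common FPKM sum. The replicate numbers showed no sign of pairing the libraries, and the labels do not say whether they pair them. The r of the deviations of same-numbered libraries was 0.02, 0.03 and 0.08 in Panc1 and −0.13, −0.17 and 0.00 in MiaPaCa2. With the replicate numbers as a replicate block the counts were 8141, 3959, 7247 and 10915.

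Among the 10 genes, the sign of the MiaPaCa2 difference turned in some alternatives for SEMA3A (kept in 18 of 21) and SEMA3F (kept in 19 of 21), whose groups overlapped. SEMA3A in Panc1 was at −1.10 on a common FPKM sum and SEMA3B in Panc1 at −0.33 with a pseudocount of 0.1. With a filter of 5 FPKM, 4 other family genes were tested, of which 0 rose and 2 fell in Panc1 (4 and 4 as reported), and 2 rose and 1 fell in MiaPaCa2 (6 and 2), since fewer genes were tested. The falls of that list in Panc1 were 2 with the median ratio. With each line fitted alone 3 partners (5) and 2 signalling genes (5) rose in MiaPaCa2, with the replicate block 3 signalling genes rose, and with quantile normalization 1 signalling gene fell (2), and the cause was not tested. Unknown read depth limits what can be said of genes near 1 FPKM, and the MiaPaCa2 knockout label is not checked by the ASAP2 transcript.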
